A study of Mus musculus with 14 samples.

Results

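Mitochondrial ribosomal proteins are the protein part of the mitoribosome, the ribosome inside mitochondria. They were taken here as every gene whose symbol is Mrpl or Mrps followed by a number and at most 1 letter, which gave 77 of the 23682 genes measured in all libraries, 48 with a large subunit symbol (Mrpl) and 29 with a small subunit symbol (Mrps). All 77 are annotated as protein coding, lie on 17 chromosomes and passed the filter on low reads, and 5 further rows named as pseudogenes were left out. The data are bulk RNA sequencing of 14 whole mouse kidneys. The GSK2830371 group held 5 i-TERTci mice, heterozygous for the actin-rtTA and tetop-TERTci transgenes, given daily intraperitoneal GSK2830371, an inhibitor of the phosphatase WIP1, and taken after 31, 49, 49, 49 and 28 days on doxycycline. The DMSO group held 5 i-TERTci mice of the same genotype given the DMSO vehicle and taken after 29, 29, 29, 38 and 31 days. The control group held 4 actin-rtTA+ mice without the TERTci transgene, taken after 30 days, with no injection recorded. Doxycycline was in the drinking water of all 14 mice, where it turns on ubiquitous TERTci, a catalytically inactive telomerase reverse transcriptase, in i-TERTci mice only, and the injections began once the mice were heavily proteinuric. The labels call the i-TERTci mice adult and give neither an age nor a sex. Reads of Xist at a female level were present in 3 of 5 GSK2830371, 2 of 5 DMSO and 4 of 4 control libraries.

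The mitoribosome translates the few messages encoded by mitochondrial DNA, all of which code for subunits of the respiratory chain and ATP synthase. Its 2 ribosomal RNAs, mt-Rnr1 in the small subunit and mt-Rnr2 in the large one, come from mitochondrial DNA, while every protein is encoded in the nucleus, made in the cytosol and imported. Some of these proteins descend from proteins of the bacterial ribosome, and others are found in mitochondria only. The small subunit reads the message, and the large subunit joins amino acids and is anchored at the inner membrane. Proximal tubule cells, the bulk of the kidney cortex, are rich in mitochondria and draw on oxidative phosphorylation for solute transport.

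Promoter sequences are given first, because nuclear genes for mitoribosomal proteins commonly carry sites for ETS factors, NRF1 and YY1 and few TATA boxes. RefSeq windows of GRCm38.p6, 250 bases before to 50 after the start, were on hand for 68 of the 77 members (74 windows) and for 32851 windows in all. Both strands were searched. The ETS letters CCGGAAG were in 25 of the 74 member windows (33.8%), against 8.86% of all windows. The NRF1 letters GCATGCGC were in 8 (10.8%), against 2.71% of all windows. The YY1 letters AAGATGGCG were in 8 (10.8%), against 1.40% of all windows. The letters TATAAA were in 5 (6.76%), against 13.6% of all windows. The run GCGCATGCGC holds the NRF1 letters on both strands at once, and no YY1 match overlapped an ETS match. The 130 bases before the start are shown for 5 members as examples, with matches to the ETS and NRF1 letters in capitals. They do not stand for the largest changes: Mrps2, Mrps15 and Mrps33 have no match in these bases and are not shown. Mrpl34 and Mrpl58 fell and carry an ETS match, Mrpl22 fell and carries an ETS and an NRF1 match, Mrpl9 rose and carries NRF1 letters, and Mrps14 rose with no match in these bases.
Mrpl34 (chr8:71464796-71464925, plus strand): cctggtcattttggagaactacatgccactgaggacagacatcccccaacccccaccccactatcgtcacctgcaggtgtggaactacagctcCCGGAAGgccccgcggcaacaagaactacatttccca
Mrpl58 (chr11:115403622-115403751, plus strand): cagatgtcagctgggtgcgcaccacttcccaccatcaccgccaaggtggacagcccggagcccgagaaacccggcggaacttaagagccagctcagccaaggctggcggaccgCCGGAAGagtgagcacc
Mrpl22 (chr11:58171534-58171663, plus strand): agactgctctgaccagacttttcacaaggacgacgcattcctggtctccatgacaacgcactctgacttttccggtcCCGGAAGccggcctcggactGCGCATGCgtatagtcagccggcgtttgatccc
Mrpl9 (chr3:94443206-94443335, plus strand): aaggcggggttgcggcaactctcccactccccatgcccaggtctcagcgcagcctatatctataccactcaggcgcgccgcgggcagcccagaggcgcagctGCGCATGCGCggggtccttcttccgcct
Mrps14 (chr1:160195085-160195214, plus strand): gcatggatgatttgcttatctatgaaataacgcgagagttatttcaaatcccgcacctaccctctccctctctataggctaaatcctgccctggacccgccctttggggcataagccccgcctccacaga

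The 8 YY1 matches are shown with up to 10 bases on either side, on the strand of the gene and with the match in capitals, since all 8 belong to members that were lower in both i-TERTci groups. The match lay after the annotated start in 6 and before it in 2.
Mrpl35 (chr6:71823743-71823771, minus strand): ggcaggctgcAAGATGGCGgcttccatct
Mrpl36 (chr13:73330968-73330996, plus strand): cgtgaccttaCGCCATCTTtcttcctggc
Mrpl37 (chr4:107066822-107066850, minus strand): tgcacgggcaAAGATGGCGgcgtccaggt
Mrpl42 (chr10:95501904-95501932, minus strand): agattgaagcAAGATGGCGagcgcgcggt
Mrps11 (chr7:78783013-78783041, plus strand): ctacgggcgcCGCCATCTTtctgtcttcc
Mrps18a (chr17:46111005-46111033, plus strand): ggtgcgttccAAGATGGCGgccctcaggg
Mrps24 (chr11:5707652-5707675, minus strand): gcgccggcccAAGATGGCGtggtc
Mrps27 (chr13:99344790-99344818, plus strand): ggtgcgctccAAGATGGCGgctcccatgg
By the call in DMSO against control, the YY1 letters were in the windows of 8 of 28 members that fell, 0 of 9 that rose and 0 of 31 that did not pass. By the call in GSK2830371 against control they were in 8 of 35 that fell, 0 of 5 that rose and 0 of 28 that did not pass. The ETS letters were spread over all calls, in 11 of 28 that fell, 4 of 9 that rose and 10 of 31 that did not pass in DMSO against control. The split depends on the setting. With total reads scaling, 4 of the 8 with YY1 letters were lower in DMSO against control and 4 did not pass, as without control replicate 1, without DMSO replicate 3 or without DMSO replicate 5, and over all settings the count ran from 4 to 8. In GSK2830371 against control it ran from 5 with total reads scaling to 8. None of the 8 was called higher in any of the 24 settings. Among these 8, the calls in DMSO against control that were lost under at least 1 setting are those of Mrpl35, Mrpl36, Mrps11 and Mrps24. The call of Mrpl22 was lost with total reads scaling in GSK2830371 (adjusted p = 0.0587) and in DMSO against control (0.466), and in DMSO against control with 8 more settings, among them without control replicate 1 (0.0743) and without DMSO replicate 5 (0.0589). This split was made after the values were seen and has no test. The YY1 letters were in the windows of 443 genes over all promoters, and how many of those fell was not counted. Whether the split is particular to the members is therefore not known. A match is a stretch of letters, not a bound site.

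Member genes took 0.191% to 0.255% of the reads in genes of the GSK2830371 libraries, 0.219% to 0.263% in the DMSO libraries and 0.235% to 0.302% in the control libraries, which is 94354 to 173466 reads per library. Total reads in genes were 48434771 to 49422279 in GSK2830371, 47194888 to 48846771 in DMSO and 48469086 to 64581825 in control libraries. Reads of the mitochondrial genome made up 5.07% to 8.35% in GSK2830371 kidneys, 4.95% to 9.52% in DMSO kidneys and 14.4% to 24.2% in control kidneys of all reads in genes. All values below are recovered reads divided by a median-of-ratios size factor, called normalised reads. All p-values are two-sided, from limma fitted to log2(normalised reads + 1) of all 14 libraries and 18810 genes, adjusted by Benjamini and Hochberg's method over all of them and called under 0.05. A log2 change is the mean of the first group minus that of the second on that scale. The labels give no litter or cage, so p-values measure the spread between these mice only. The sample identifiers of the controls run in a block apart from those of the i-TERTci mice, so genotype and any difference in handling cannot be told apart.

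Per kilobase of transcript, the members were expressed well above the typical gene. The median large subunit member had 989 normalised reads per kilobase in GSK2830371 kidneys, 1133 in DMSO kidneys and 1313 in control kidneys, and the median small subunit member had 691 in GSK2830371 kidneys, 859 in DMSO kidneys and 827 in control kidneys. The median over all genes with a transcript length was 191 in GSK2830371, 193 in DMSO and 182 in control kidneys. Mrpl42, a mitochondria-specific protein of the large subunit, had the highest level, 4082 ± 782 in GSK2830371 kidneys, 4064 ± 705 in DMSO kidneys and 8559 ± 726 in control kidneys, in normalised reads per kilobase (mean ± SD, n = 5, 5 and 4 here and for the next levels). Mrps21, the counterpart of bacterial S21, came next in all 3 groups, with 3065 ± 715 in GSK2830371 kidneys, 3333 ± 886 in DMSO kidneys and 8314 ± 2691 in control kidneys. Mrpl4, whose bacterial counterpart lines the exit tunnel of the nascent peptide, was at rank 12 in both i-TERTci groups and at rank 3 in the controls, with 1906 ± 324 in GSK2830371 kidneys, 2103 ± 559 in DMSO kidneys and 7649.8 ± 2028 in control kidneys. In the controls these 3 did not differ beyond their spread. The lowest in controls were Mrps25, with 142 ± 32.3 in GSK2830371 kidneys, 158 ± 33.2 in DMSO kidneys and 187 ± 20.8 in control kidneys, Mrpl47, with 175 ± 33.5 in GSK2830371 kidneys, 190.0 ± 37.9 in DMSO kidneys and 178 ± 38.2 in control kidneys, and Mrpl19, with 139 ± 23.1 in GSK2830371 kidneys, 165 ± 23.6 in DMSO kidneys and 162 ± 9.74 in control kidneys, and these overlapped in every group. The highest large subunit level was 29.4 times the lowest in GSK2830371 kidneys, 24.6 times in DMSO kidneys and 52.8 times in control kidneys. For the small subunit this span was 21.6 times in GSK2830371, 21.1 times in DMSO and 44.4 times in control kidneys. No test was made between genes.

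Mitoribosomal protein genes that passed the test were mostly lower in DMSO-treated i-TERTci kidneys than in control kidneys, relative to the bulk of genes. Of the 77 members, 32 fell and 9 rose, so that 53.2% passed the test, against 48.3% of all genes. By direction, 41.6% of members fell and 11.7% rose, against 23.1% of all genes that fell and 25.2% that rose. In the large subunit 20 of 48 fell and 4 rose, with a median log2 change of -0.28, and in the small subunit 12 of 29 fell and 5 rose, with a median of -0.28, against a median of 0.026 over all genes. Falls of at least 2-fold were seen in 11 members and rises of at least 2-fold in Mrps33 and Mrps14. In bulk RNA, fewer cells of a type and less RNA per cell cannot be told apart. All DMSO libraries lay below all control libraries for 21 of the 77 members, beside 18.8% of all genes. They lay above them for 5, beside 20.0% of all genes. Together these were 26 of 77, a smaller share than the 38.8% of all genes in either direction. The subunits gave the same median, and the difference between large and small was not tested. When libraries were scaled to their total reads instead, the medians turned to 0.035 for the large and 0.038 for the small subunit, with 11 and 6 falls, as the median of all genes moved to 0.34. Relative to that median the members lay at -0.31 and -0.30, against -0.31 and -0.31 in the scaling used throughout. With total reads, 72.4% of all calls were higher in DMSO kidneys, against 52.2% in the scaling used throughout. Mitochondrial reads, which differ between the groups, enter that total, and with them left out it shifted the median of all genes to 0.15.

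A larger number of members fell in GSK2830371-treated i-TERTci kidneys, where 40 of 77 fell and 5 rose against control. That is 58.4% of members against 46.3% of all genes, with 51.9% of members falling against 22.0% of all genes, and 6.49% rising against 24.3%. In the large subunit 26 of 48 fell and 1 rose, with a median log2 change of -0.47. In the small subunit 14 of 29 fell and 4 rose, with a median of -0.42, against 0.011 over all genes. Falls of at least 2-fold were seen in 14 members and a rise of at least 2-fold in Mrps33. All GSK2830371 libraries lay below all control libraries for 38 of the 77 members, beside 19.6% of all genes. They lay above them for 5, beside 20.8% of all genes. Together these were 43 of 77, a larger share than the 40.3% of all genes in either direction. With total reads scaling, which moved the median of all genes to 0.34, the medians were -0.14 for the large and -0.091 for the small subunit, with 15 and 8 falls, and 74.3% of all calls were higher in GSK2830371 kidneys against 52.4% in the scaling used throughout. Both comparisons use the same 4 controls. In both, 32 members fell, 5 rose and 28 did not pass, 8 fell in GSK2830371 against control without passing in DMSO against control, and 4 rose in DMSO against control without passing in GSK2830371 against control. Those 8 are Mrpl15, Mrpl17, Mrpl32, Mrpl48, Mrpl50, Mrpl57, Mrps7 and Mrps16, and the 4 are Mrpl16, Mrpl21, Mrpl27 and Mrps10. All of those 8 calls were lost with total reads scaling (adjusted p = 0.0589 to 0.805). The calls of Mrpl15, Mrpl17, Mrpl32, Mrpl50, Mrpl57 and Mrps16 were also lost with at least 1 single library left out, and that of Mrpl48 at 31 days or fewer (0.0560). None of the 77 passed between GSK2830371 and DMSO.

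**Figure D1:**
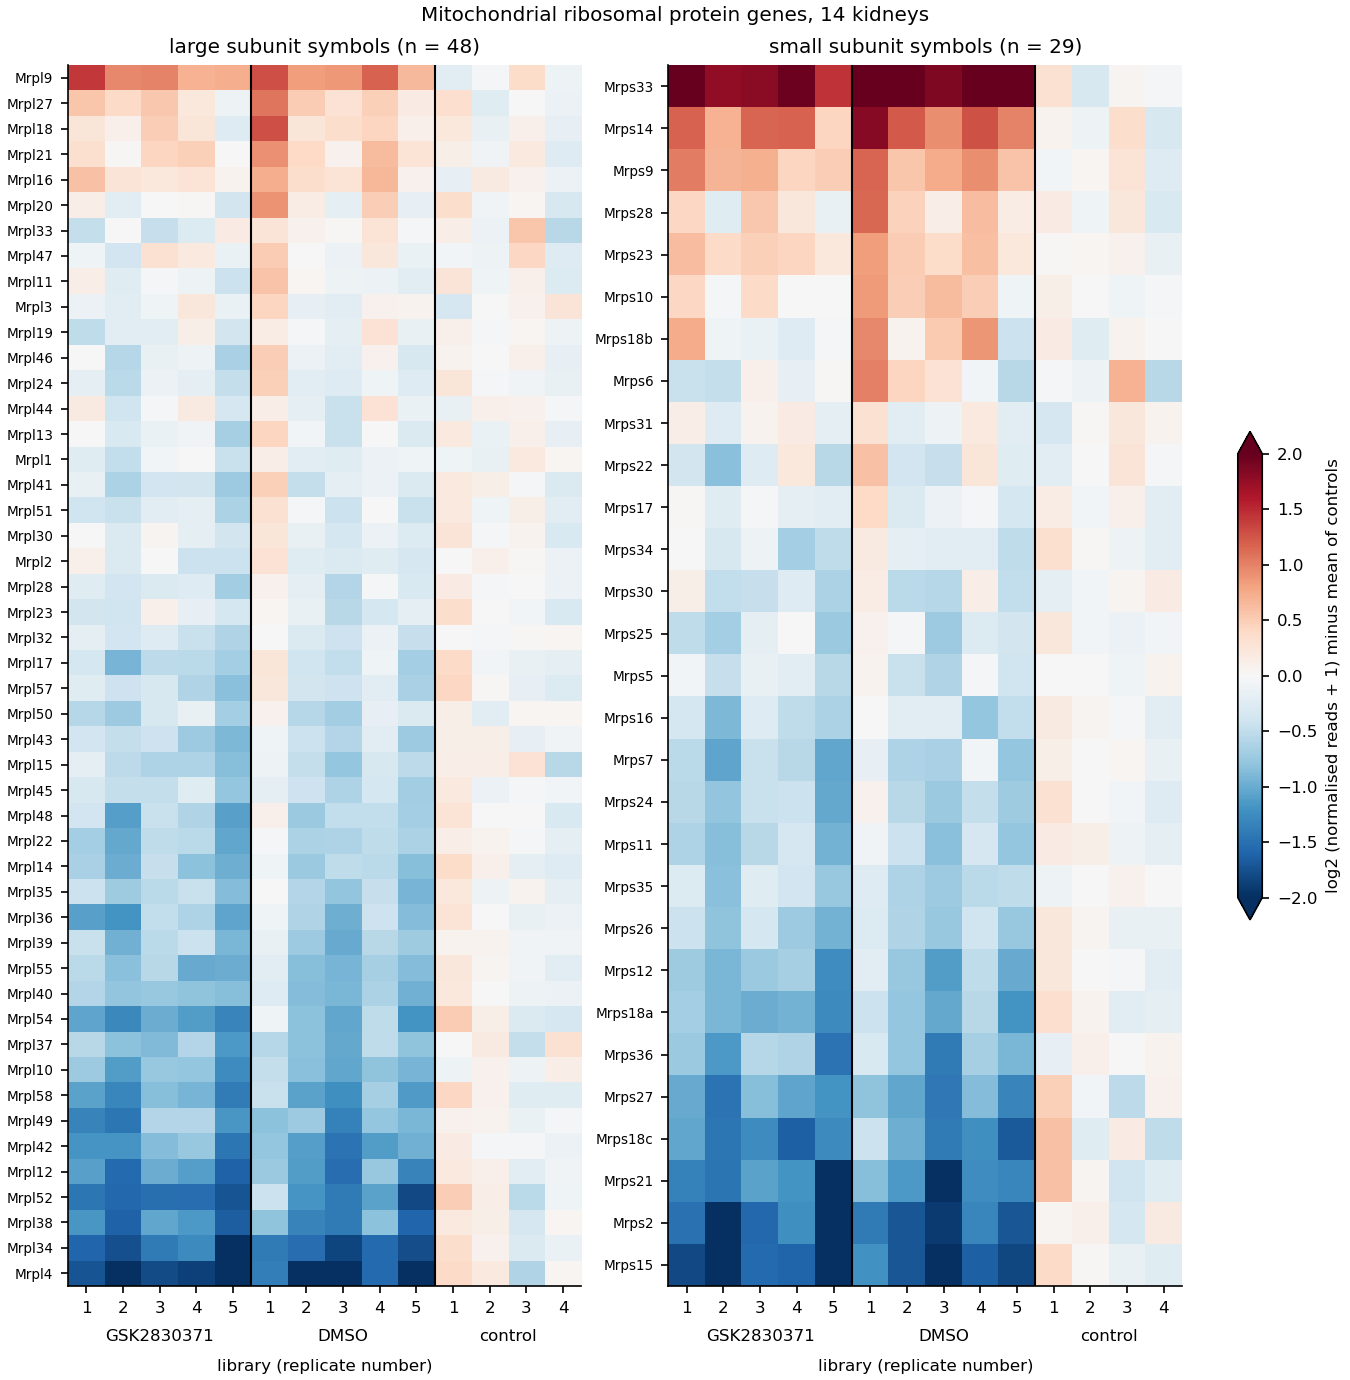
Each row is a member and each column a kidney, with the GSK2830371, DMSO and control libraries from left to right; colour is log2(normalised reads + 1) minus the mean of the 4 controls, red above it and blue below it, and values beyond the ends of the scale take its end colour. Rows are ordered by the log2 change in DMSO against control, so Mrps33 and Mrpl9 lead and Mrps15 and Mrpl4 close their panels, and DMSO replicate 1 is redder than the other DMSO libraries across most rows.

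**Figure D2:**
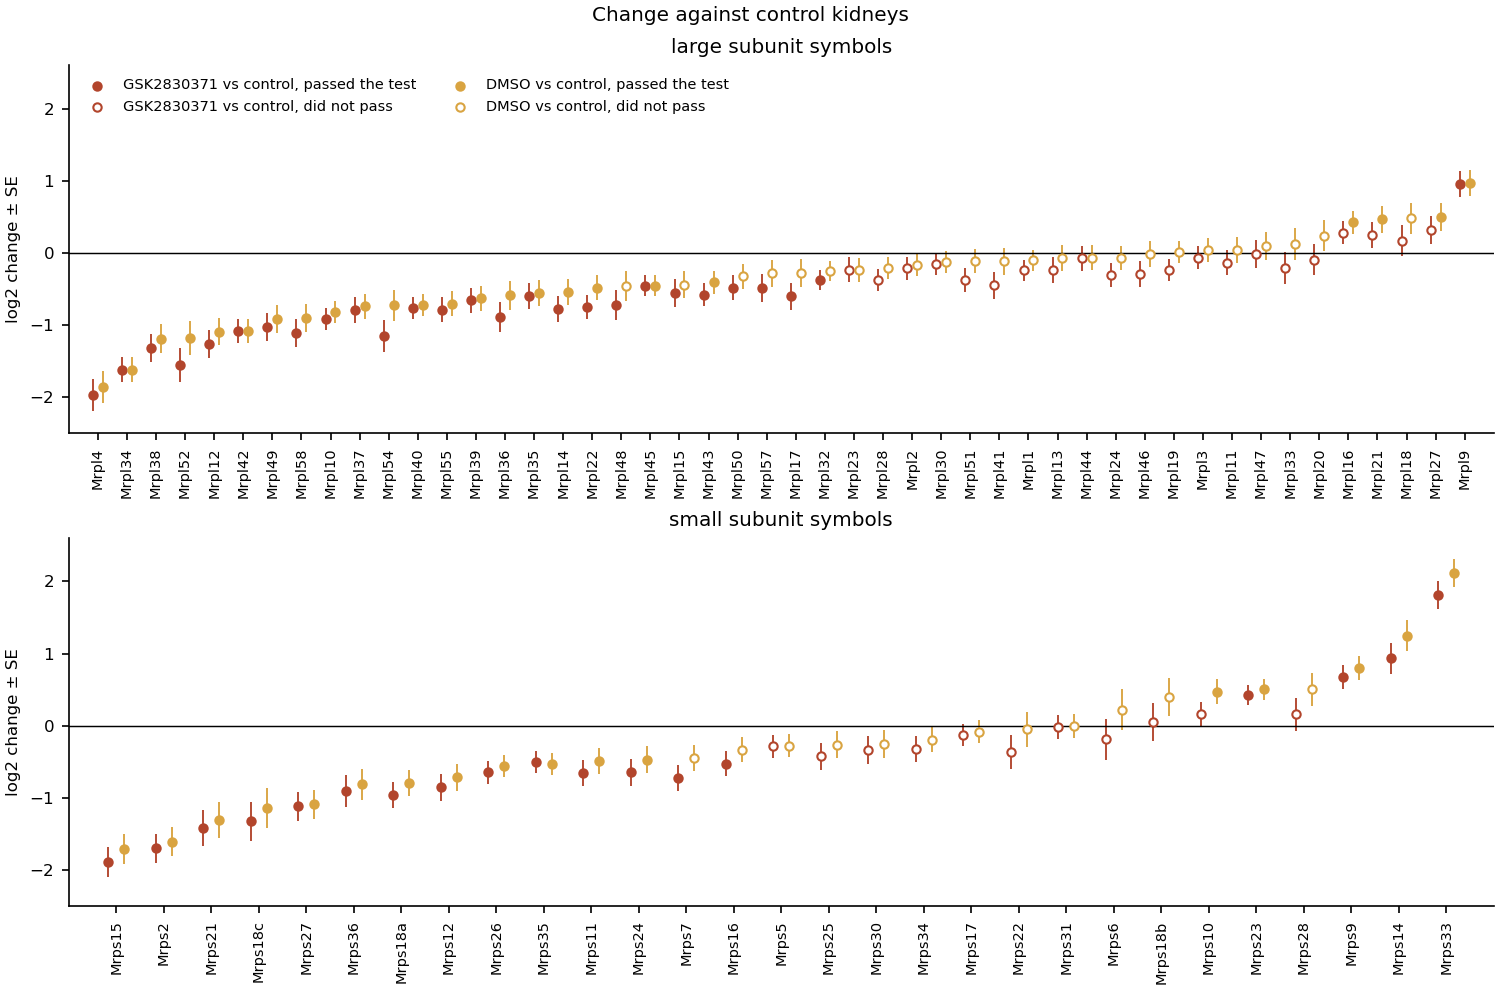
The log2 change of every member against control with its standard error, in GSK2830371 (red) and DMSO (yellow) kidneys, with filled points where the adjusted p passed the threshold. Most filled points lie below 0, with 40 falls and 5 rises in GSK2830371 kidneys and 32 falls and 9 rises in DMSO kidneys.

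Among proteins of the large subunit that have a bacterial counterpart, Mrpl4 had the largest fall. Mrpl4 (ENSMUSG00000003299, chr9:21002738-21008839, plus strand) had 2882, 2105, 2752, 2608 and 1925 normalised reads in the GSK2830371 kidneys. It had 3676, 2317, 1961, 3247 and 2341 in the DMSO kidneys and 12449, 10884, 6295 and 9784 in the control kidneys. Every i-TERTci library was below every control library, and the log2 change was -1.98 ± 0.22 (SE, adjusted p = 7.76e-06) in GSK2830371 against control. The change was -1.86 ± 0.22 (adjusted p = 1.28e-05) in DMSO against control. Mrpl34, the counterpart of the small basic protein L34, had 1002, 892, 1137, 1248 and 722 normalised reads in the GSK2830371 kidneys. It had 1131, 1051, 844, 1034 and 889 in the DMSO kidneys and 3851, 3196, 2466 and 2760.0 in the control kidneys. The i-TERTci libraries again stood entirely below the controls, with 3.08-fold lower means in GSK2830371 and 3.07-fold lower means in DMSO kidneys on the log2(value + 1) scale, and the log2 change was -1.62 ± 0.18 (SE, adjusted p = 6.18e-06) in GSK2830371 against control. For DMSO against control it was -1.62 ± 0.18 (adjusted p = 5.85e-06).

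Mrpl12 and Mrpl10, proteins of the stalk on which translation factors land, fell. Mrpl12, the stalk protein counterpart of L7/L12, had 3870.4, 2805, 4139, 3811 and 2681 normalised reads in the GSK2830371 kidneys. It had 4912, 3805, 2869, 4838 and 3252 in the DMSO kidneys and 9393, 8818, 7023 and 7829 in the control kidneys. No i-TERTci library reached the lowest control, and the log2 change was -1.27 ± 0.19 (SE, adjusted p = 0.000101) in GSK2830371 against control. DMSO against control gave -1.09 ± 0.19 (adjusted p = 0.000295). An antisense gene, Gm16755, overlaps 200 of its exonic bases, and the strand setting of the counting is not given in the sources used here, so reads of the pair cannot be told apart. Mrpl10, which joins Mrpl12 to the body of the subunit, averaged 2257 ± 363 normalised reads in GSK2830371 kidneys (SD, n = 5), 2425 ± 374 in DMSO kidneys (n = 5) and 4252 ± 370.1 in control kidneys (n = 4), and the log2 change was -0.93 ± 0.15 (SE, adjusted p = 0.000206) in GSK2830371 against control. It was -0.82 ± 0.15 (adjusted p = 0.000483) in DMSO against control. The groups did not overlap for Mrpl10 either. Gm11574 overlaps 240 exonic bases of Mrpl10 on the opposite strand, with the same limit. Mrpl11, the counterpart of L11 at the base of the stalk, did not pass, with log2 changes of -0.14 ± 0.18 (SE, adjusted p = 0.537) in GSK2830371 and 0.037 ± 0.18 (adjusted p = 0.876) in DMSO against control, and was named after its values were seen. Mrpl58, a peptidyl-tRNA hydrolase built into the large subunit that can release stalled peptides, averaged 1503 ± 243 normalised reads in GSK2830371 kidneys (SD, n = 5), 1755 ± 429 in DMSO kidneys (n = 5) and 3276 ± 752 in control kidneys (n = 4), and the log2 change was -1.11 ± 0.19 (SE, adjusted p = 0.000333) in GSK2830371 against control. With DMSO against control it was -0.91 ± 0.19 (adjusted p = 0.0014).

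A few large subunit members went the other way. Mrpl9 (ENSMUSG00000028140, chr3:94443318-94451130, plus strand), the counterpart of L9, had 2575, 1876, 1937, 1577 and 1604 normalised reads in the GSK2830371 kidneys. It had 2358, 1736, 1766, 2203 and 1518 in the DMSO kidneys and 827, 943, 1252 and 901 in the control kidneys. All 10 i-TERTci libraries exceeded the highest control, and the log2 change was 0.96 ± 0.18 (SE, adjusted p = 0.000596) in GSK2830371 against control. The change was 0.96 ± 0.18 (adjusted p = 0.00051) in DMSO against control. It was the only large subunit member that rose in GSK2830371 against control. Oaz3 overlaps 157 exonic bases of Mrpl9 on the opposite strand, so its values may include reads of that gene. Mrpl16, Mrpl21 and Mrpl27 rose in DMSO against control with log2 changes of 0.42, 0.46 and 0.50 (adjusted p = 0.0359, 0.0469 and 0.0422), and their log2 changes in GSK2830371 against control were 0.28, 0.25 and 0.32. The count of 4 risers in DMSO against control dropped to 1 without control replicate 4, DMSO replicate 1 or DMSO replicate 4, and to 2 without control replicate 1, control replicate 2 or DMSO replicate 2. It was also 1 with Xist-positive libraries only or with Xist as a covariate.

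Of the large subunit proteins found in mitochondria only, none rose. In GSK2830371 against control 15 of 19 fell and none rose, with a median log2 change of -0.72, and in DMSO against control 12 of 19 fell and none rose, with a median of -0.63. All 19 changes were below 0 in both comparisons, against 49.5% of all genes in GSK2830371 and 48.9% in DMSO against control, and with total reads scaling 17 of 19 were in GSK2830371 and 14 of 19 in DMSO against control. Of the 29 large subunit members with a bacterial counterpart, 11 fell and 1 rose in GSK2830371 against control (median -0.24), and 8 fell and 4 rose in DMSO against control (median -0.13). With total reads scaling the medians of these 29 turned to 0.096 and 0.19, while those of the mitochondria-specific class stayed at -0.39 and -0.31, in GSK2830371 and in DMSO against control. In the small subunit the order of the medians was the other way round. Of the 16 small members with a bacterial counterpart, 9 fell and 2 rose in GSK2830371 against control (median -0.59), and 7 fell and 3 rose in DMSO against control (median -0.39). Of the 13 mitochondria-specific small members, 5 fell and 2 rose in each comparison, with medians of -0.36 in GSK2830371 and -0.26 in DMSO against control. With a GC content correction the small subunit medians changed order, to -0.46 for a bacterial counterpart and -0.64 for mitochondria-specific in GSK2830371, and to -0.34 and -0.52 in DMSO against control. Mrps18a, which fell, and Mrps18b, which did not pass, were counted as mitochondria-specific, although they are paralogues of bacterial S18. Their paralogue Mrps18c was counted as having a bacterial counterpart. The small subunit medians with all of these in 1 class were not computed. The difference between these classes was not tested, and the classes were drawn up with the values known. Mrpl52 had the largest fall of the mitochondria-specific class in GSK2830371 kidneys, with 945, 858, 895, 886 and 771 normalised reads in the GSK2830371 kidneys. It had 1892, 1125, 959.9, 1225 and 736 in the DMSO kidneys and 3594, 2819, 1755 and 2420.3 in the control kidneys. DMSO replicate 1 overlapped the lowest control and no GSK2830371 library did, and the log2 change was -1.56 ± 0.24 (SE, adjusted p = 0.000106) in GSK2830371 against control. For DMSO against control it was -1.18 ± 0.24 (adjusted p = 0.000831). Mrpl42, the most abundant member per kilobase, averaged 2718 ± 521 normalised reads in GSK2830371 kidneys (SD, n = 5), 2707 ± 469.7 in DMSO kidneys (n = 5) and 5700.4 ± 483 in control kidneys (n = 4). Its log2 change was -1.09 ± 0.17 (SE, adjusted p = 0.00012) in GSK2830371 against control. DMSO against control gave -1.09 ± 0.17 (adjusted p = 0.000106). Mrpl54 had 1327, 1129.7, 1376, 1267 and 1099 normalised reads in the GSK2830371 kidneys. It had 2584, 1561, 1341, 1937 and 1196 in the DMSO kidneys and 3910.0, 2995, 2239 and 2175 in the control kidneys, with a log2 change of -1.15 ± 0.22 (SE, adjusted p = 0.000613) in GSK2830371 against control. It was -0.73 ± 0.22 (adjusted p = 0.0123) in DMSO against control. DMSO replicate 1 was the one i-TERTci library of Mrpl54 within the control range. The Mrpl54 call in DMSO against control was lost without control replicate 1 (adjusted p = 0.0514), with total reads scaling (0.0619) and with a GC content correction (-0.17, adjusted p = 0.556).

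In the small subunit the log2 changes in DMSO against control ran from -1.71 to 2.11. Mrps33 (ENSMUSG00000029918, chr6:39801804-39810988, minus strand), a mitochondria-specific protein of the small subunit, rose more than any other member. It had 901, 737, 757, 843 and 587 normalised reads in the GSK2830371 kidneys. It had 1358, 860.3, 787, 894 and 857 in the DMSO kidneys and 265, 173, 223 and 209 in the control kidneys. Every i-TERTci library was far above the highest control, and the log2 change was 1.81 ± 0.19 (SE, adjusted p = 4.97e-06) in GSK2830371 against control. With DMSO against control it was 2.11 ± 0.19 (adjusted p = 1.15e-06). On the log2(value + 1) scale this is 3.51-fold in GSK2830371 and 4.32-fold in DMSO kidneys. DMSO replicate 1 was well above the other DMSO libraries, and without it the 4 others still lay between 787 and 894 normalised reads. Per kilobase, Mrps33 stood at rank 44 of 77 in GSK2830371 kidneys, at rank 41 in DMSO kidneys and at rank 74 in control kidneys.

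Mrps14, Mrps9 and Mrps23 rose as well. Mrps14, the counterpart of S14 in the head of the subunit, had 1402, 1005, 1382, 1397 and 836 normalised reads in the GSK2830371 kidneys. It had 2186, 1445, 1179, 1497 and 1226 in the DMSO kidneys and 647, 573, 792 and 496 in the control kidneys. Its groups did not overlap, and the log2 change was 0.93 ± 0.21 (SE, adjusted p = 0.00234) in GSK2830371 against control. The change was 1.25 ± 0.21 (adjusted p = 0.000241) in DMSO against control. The call in GSK2830371 against control was lost with a GC content correction (0.51, adjusted p = 0.0624). Mrps9, the counterpart of S9, averaged 1535 ± 256 normalised reads in GSK2830371 kidneys (SD, n = 5), 1679.7 ± 313 in DMSO kidneys (n = 5) and 962 ± 148 in control kidneys (n = 4), and the log2 change was 0.67 ± 0.17 (SE, adjusted p = 0.00429) in GSK2830371 against control. For DMSO against control it was 0.80 ± 0.17 (adjusted p = 0.00121). Mrps23, a mitochondria-specific protein, averaged 1549 ± 158 normalised reads in GSK2830371 kidneys (SD, n = 5), 1645 ± 271 in DMSO kidneys (n = 5) and 1151 ± 83.8 in control kidneys (n = 4), and the log2 change was 0.42 ± 0.14 (SE, adjusted p = 0.0225) in GSK2830371 against control. DMSO against control gave 0.50 ± 0.14 (adjusted p = 0.0087). The call of Mrps23 in GSK2830371 against control was lost without control replicate 4 (adjusted p = 0.0738), without GSK2830371 replicate 1 (0.0532), at 31 days or fewer (0.129) and with Xist as a covariate (0.0609). In DMSO against control it was lost with Xist-positive libraries only (0.115) and with Xist as a covariate (0.0523). Mrps10, the counterpart of S10, rose in DMSO against control by a log2 change of 0.47 ± 0.17 (SE, adjusted p = 0.0356), and its change in GSK2830371 against control was 0.15 ± 0.17 (adjusted p = 0.489). This call of Mrps10 was lost in 10 settings: with Xist-positive libraries only (0.21, adjusted p = 0.461), with Xist as a covariate (0.214), at 31 days or fewer (0.0748) and without any 1 of control replicates 2 to 4 or DMSO replicates 1 to 4 (0.0546 to 0.0837).

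The largest falls in the small subunit were in proteins with a bacterial counterpart. Mrps15 (ENSMUSG00000028861, chr4:126046925-126055532, plus strand), the counterpart of S15, an early binder of the small ribosomal RNA in bacteria, had 752, 601, 894, 861 and 516 normalised reads in the GSK2830371 kidneys. It had 1132, 800.0, 578, 847 and 747 in the DMSO kidneys and 3416, 2669, 2359 and 2214 in the control kidneys. No i-TERTci library came near the lowest control, and the log2 change was -1.89 ± 0.21 (SE, adjusted p = 7.44e-06) in GSK2830371 against control. It was -1.71 ± 0.21 (adjusted p = 1.63e-05) in DMSO against control. Mrps2, the counterpart of S2, had 1259, 758, 1193, 1515 and 879 normalised reads in the GSK2830371 kidneys. It had 1323, 1078, 935, 1429 and 1079.9 in the DMSO kidneys and 3685, 3805, 2772 and 4009 in the control kidneys, with no overlap. For Mrps2 the log2 change was -1.70 ± 0.20 (SE, adjusted p = 1.24e-05) in GSK2830371 against control. With DMSO against control it was -1.61 ± 0.20 (adjusted p = 1.84e-05). Mrps21 averaged 1496 ± 349 normalised reads in GSK2830371 kidneys (SD, n = 5), 1627 ± 433 in DMSO kidneys (n = 5) and 4057 ± 1313 in control kidneys (n = 4), and the log2 change was -1.42 ± 0.25 (SE, adjusted p = 0.000343) in GSK2830371 against control. The change was -1.31 ± 0.25 (adjusted p = 0.000574) in DMSO against control. Mrps12, the counterpart of S12 in the decoding centre, had 956, 837, 939, 993 and 666 normalised reads in the GSK2830371 kidneys. It had 1364, 934, 724, 1109.7 and 779 in the DMSO kidneys and 1849, 1577, 1554 and 1350.2 in the control kidneys. DMSO replicate 1 overlapped the lowest control of Mrps12, and the log2 change was -0.85 ± 0.19 (SE, adjusted p = 0.00188) in GSK2830371 against control. For DMSO against control it was -0.72 ± 0.19 (adjusted p = 0.00563). In DMSO against control the Mrps12 call was lost with total reads scaling (adjusted p = 0.0598) and with a GC content correction (0.0893).

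Of the 3 paralogues of bacterial S18, Mrps18a and Mrps18c fell and Mrps18b did not pass. Mrps18a, which structures of the mammalian mitoribosome place in the large subunit despite its symbol, averaged 1681 ± 247 normalised reads in GSK2830371 kidneys (SD, n = 5), 1909.7 ± 416 in DMSO kidneys (n = 5) and 3289 ± 616 in control kidneys (n = 4), and the log2 change was -0.96 ± 0.18 (SE, adjusted p = 0.000565) in GSK2830371 against control. DMSO against control gave -0.79 ± 0.18 (adjusted p = 0.0021). Mrps18c had 186, 139, 159.7, 123 and 158 normalised reads in the GSK2830371 kidneys. It had 284, 193, 144, 163 and 119 in the DMSO kidneys and 574, 323, 429 and 268 in the control kidneys. DMSO replicate 1 alone was within the control range of Mrps18c, and the log2 change was -1.33 ± 0.28 (SE, adjusted p = 0.00119) in GSK2830371 against control. It was -1.14 ± 0.28 (adjusted p = 0.00314) in DMSO against control. Mrps18b averaged 982 ± 313 normalised reads in GSK2830371 kidneys (SD, n = 5), 1291 ± 477 in DMSO kidneys (n = 5) and 925 ± 108 in control kidneys (n = 4) and passed in neither comparison, with log2 changes of 0.046 ± 0.27 (adjusted p = 0.9) in GSK2830371 against control and 0.40 ± 0.27 (adjusted p = 0.227) in DMSO against control. It passed as higher in DMSO against control without DMSO replicate 5 (0.61, adjusted p = 0.0405) and with total reads scaling (0.72, adjusted p = 0.0137), and turned to -0.18 with Xist-positive libraries only. An antisense gene, Gm16279, overlaps 638 exonic bases of Mrps18b, and Gm43511 overlaps 250 bases of Mrps18c on its own strand, so both values may include reads of the neighbour. Whether the 3 paralogues differ from each other was not tested.

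Mrps30, also placed in the large subunit by structures, averaged 1373 ± 295 normalised reads in GSK2830371 kidneys (SD, n = 5), 1469 ± 387 in DMSO kidneys (n = 5) and 1719 ± 177 in control kidneys (n = 4). Its log2 changes of -0.34 ± 0.19 (adjusted p = 0.156) in GSK2830371 against control and -0.26 ± 0.19 (adjusted p = 0.278) in DMSO against control did not pass. It passed as lower in DMSO against control with Xist-positive libraries only (-0.50, adjusted p = 0.0393), and with a GC content correction in GSK2830371 (-0.67, adjusted p = 0.00675) and in DMSO (-0.60, adjusted p = 0.0125) against control. With total reads scaling the DMSO change turned to 0.060. Mrps36, now counted as a part of the 2-oxoglutarate dehydrogenase complex rather than of the mitoribosome, averaged 870.2 ± 221 normalised reads in GSK2830371 kidneys (SD, n = 5), 928 ± 251 in DMSO kidneys (n = 5) and 1590.4 ± 125 in control kidneys (n = 4), and the log2 change was -0.91 ± 0.22 (SE, adjusted p = 0.00351) in GSK2830371 against control. With DMSO against control it was -0.82 ± 0.22 (adjusted p = 0.0065). The Mrps36 call in DMSO against control was lost with total reads scaling (-0.50, adjusted p = 0.0574). Mrps6, the counterpart of S6, averaged 1103 ± 201 normalised reads in GSK2830371 kidneys (SD, n = 5), 1546 ± 618 in DMSO kidneys (n = 5) and 1307 ± 499 in control kidneys (n = 4). Its log2 changes were -0.19 ± 0.28 (adjusted p = 0.601) and 0.22 ± 0.28 (adjusted p = 0.535), the first in GSK2830371 and the second in DMSO against control, and 464 of its exonic bases overlap those of Gm49711 or of the sodium and myo-inositol cotransporter gene Slc5a3 on the same strand. With Mrps30 and Mrps18a counted as large and Mrps36 as neither, 27 of 50 large members fell and 1 rose in GSK2830371 against control, and 21 fell and 4 rose in DMSO against control. Of the 26 small members left, 12 fell and 4 rose in GSK2830371 against control, and 10 fell and 5 rose in DMSO against control.

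**Figure D3:**
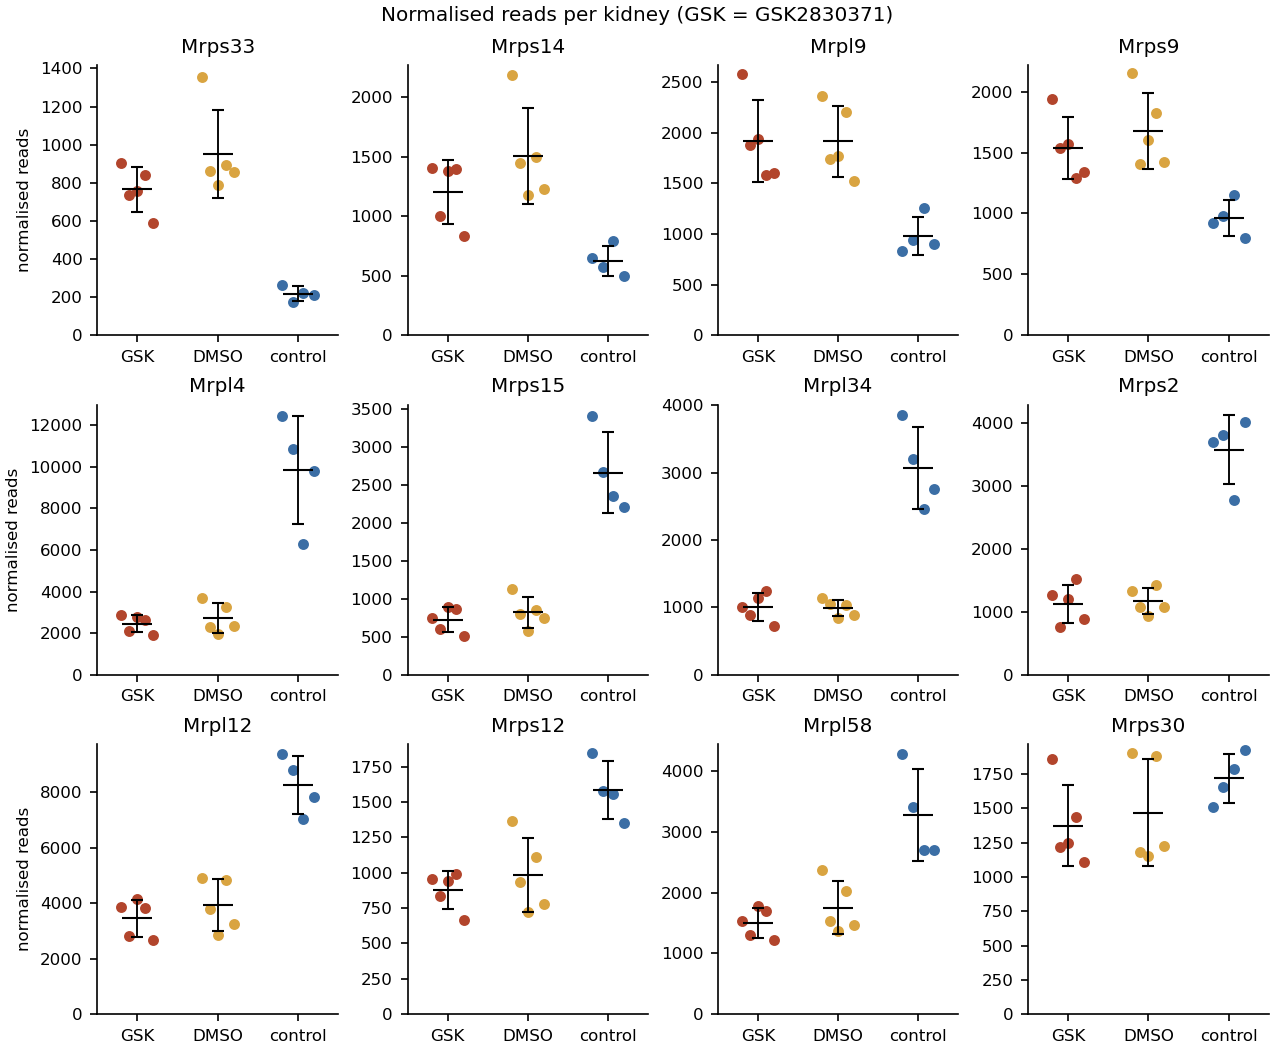
Normalised reads of 12 members in each kidney, with the mean and SD as bars, GSK2830371 to the left, DMSO in the middle and control to the right; each axis starts at 0. The top row holds risers such as Mrps33, at 587 to 901 in GSK2830371, 787 to 1358 in DMSO and 173 to 265 in control kidneys, and Mrps30 at the lower right overlaps between groups.

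The count of falls was highest among the most abundant members. When the 77 were split into 3 classes by their level per kilobase over all 14 libraries, 16 of 26 in the highest class fell and 0 rose in GSK2830371 against control, and 15 fell and 1 rose in DMSO against control. Of the 1811 genes in the same range of levels, 26.6% fell in GSK2830371 and 27.4% fell in DMSO against control. In the middle class of 26, 13 fell and 3 rose in GSK2830371, and 12 fell and 6 rose in DMSO against control, where 25.9% of the genes in that range fell in GSK2830371 and 26.9% in DMSO. In the lowest class of 25, 11 fell and 2 rose in GSK2830371 against control, where 22.9% of the genes in that range fell. In DMSO against control 5 of these 25 fell and 2 rose, a share of falls below the 23.8% of the genes in that range. The median log2 change of the highest class was -0.79 in GSK2830371 and -0.64 in DMSO against control, beside a median within 0.01 of 0 over the genes of that range. That of the lowest class was -0.36 and -0.26, beside 0.039 and 0.049 over the genes of its range. The split was chosen after values were seen, and the classes were not tested against each other.

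The level of the members differed between kidneys of a group as a whole. The median large subunit member of each library, as log2 deviation from the mean of the controls, was -0.37, -0.53, -0.40, -0.43 and -0.71 in GSK2830371 replicates 1 to 5, 0.092, -0.41, -0.50, -0.23 and -0.49 in DMSO replicates 1 to 5, and 0.19, 0.00076, -0.013 and -0.13 in control replicates 1 to 4. The small subunit medians were -0.36, -0.79, -0.26, -0.33 and -0.63 in GSK2830371, 0.088, -0.43, -0.61, -0.23 and -0.50 in DMSO and 0.16, 0.0051, -0.0017 and -0.16 in control kidneys. DMSO replicate 1 stood above the 4 other DMSO libraries for both subunits and inside the range of the controls. Large and small subunit medians of a library lay close together: their difference ranged from -0.14 to 0.26 in GSK2830371, from -0.00022 to 0.11 in DMSO and from -0.012 to 0.033 in control libraries. Without DMSO replicate 1, DMSO against control gave medians of -0.41 for the large and -0.37 for the small subunit, with 23 and 13 falls. Without control replicate 1, the library with the highest control values, 13 large subunit members fell in DMSO against control instead of 20. Within groups the members varied less than other genes: the median SD of log2 values was 0.24 for large and 0.25 for small members in GSK2830371, 0.29 and 0.32 in DMSO and 0.19 and 0.20 in control kidneys, beside 0.37 in GSK2830371, 0.42 in DMSO and 0.29 in control kidneys over all genes, whose levels are lower.

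**Figure D4:**
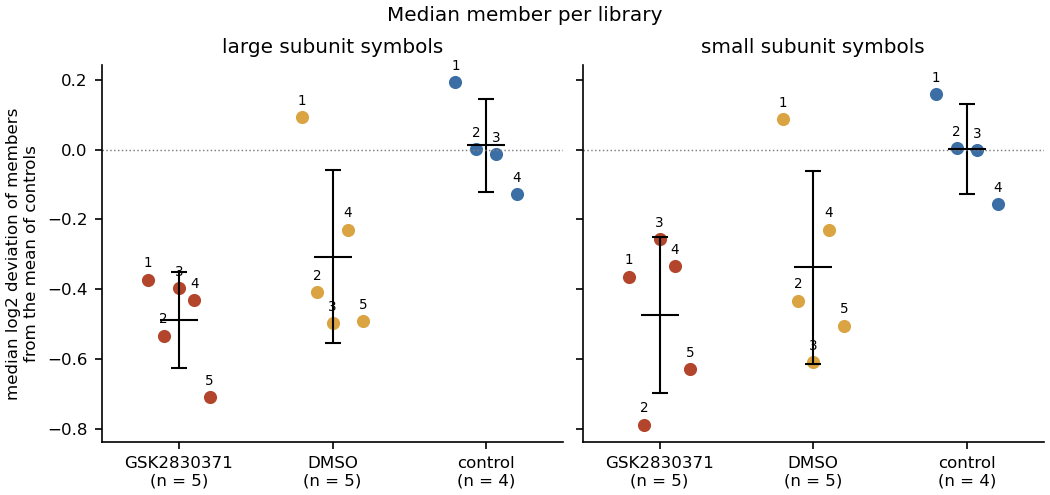
The median log2 deviation of large (left) and small (right) subunit members from the mean of the controls in each kidney, labelled by replicate number, with the mean and SD of each group as bars. GSK2830371 libraries lie at -0.71 to -0.37 for the large subunit, and DMSO replicate 1 at 0.092 is apart from the other DMSO libraries.

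No member passed the test between GSK2830371 and DMSO kidneys. Of 18810 genes none passed the test with limma (0%) or with edgeR's quasi-likelihood test, and DESeq2 called 1 gene, which is no member. At an unadjusted p under 0.05 there were 0 members, against 4.25% of all genes. Of the 77 point estimates 74 were below 0, against 51.1% of all genes, with a median of -0.16 in each subunit and -0.0063 over all genes. That share depended on the libraries used. Without DMSO replicate 1, 55 were below 0 and the medians were -0.063 for the large and -0.033 for the small subunit, and with Xist-positive libraries only, 3 against 2, 26 of 77 were below 0 and the medians were 0.032 and 0.038 for the large and the small subunit. At 31 days or fewer on doxycycline, 2 against 4, 66 were below 0. These 2 settings split the GSK2830371 group in the same way. Its 3 Xist-positive libraries are those at 49 days, and its 2 others are those at 31 days or fewer. Xist status and time on doxycycline therefore cannot be told apart in that group, here or against control. The members are not independent of each other, as the medians per library show.

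The member with the smallest p was Mrpl54, which averaged 1239.8 ± 121 normalised reads in GSK2830371 kidneys and 1724 ± 556 in DMSO kidneys (SD, n = 5 each), a log2 change of -0.42 (95% interval -0.86 to 0.013, unadjusted p = 0.0561). Mrps10 came next, with 1124 ± 179.5 normalised reads in GSK2830371 kidneys and 1417 ± 312 in DMSO kidneys (SD, n = 5 each) and a log2 change of -0.32 (95% interval -0.67 to 0.032, unadjusted p = 0.0722). Mrpl41, a mitochondria-specific large subunit protein, averaged 972 ± 157 normalised reads in GSK2830371 kidneys and 1246 ± 346 in DMSO kidneys (SD, n = 5 each), a log2 change of -0.33 (95% interval -0.71 to 0.042, unadjusted p = 0.0778). Mrpl17, the counterpart of L17, averaged 1511 ± 218 normalised reads in GSK2830371 kidneys and 1923 ± 508 in DMSO kidneys (SD, n = 5 each), a log2 change of -0.32 (95% interval -0.70 to 0.056, unadjusted p = 0.0898). Mrpl19, the counterpart of L19, averaged 694 ± 115 normalised reads in GSK2830371 kidneys and 825 ± 118 in DMSO kidneys (SD, n = 5 each), a log2 change of -0.25 (95% interval -0.56 to 0.057, unadjusted p = 0.103). In each of these 5 the groups overlapped. For the members furthest from control, the intervals did not reach the distance from control. The log2 change between GSK2830371 and DMSO was -0.12 (95% interval -0.56 to 0.32, unadjusted p = 0.574) for Mrpl4, -0.18 (95% interval -0.60 to 0.24, unadjusted p = 0.385) for Mrps15, -0.0016 (95% interval -0.35 to 0.35, unadjusted p = 0.992) for Mrpl34 and -0.30 (95% interval -0.68 to 0.084, unadjusted p = 0.118) for Mrps33. Beside them, DMSO kidneys differed from control kidneys by -1.86 for Mrpl4, -1.71 for Mrps15, -1.62 for Mrpl34 and 2.11 for Mrps33.

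**Figure D5:**
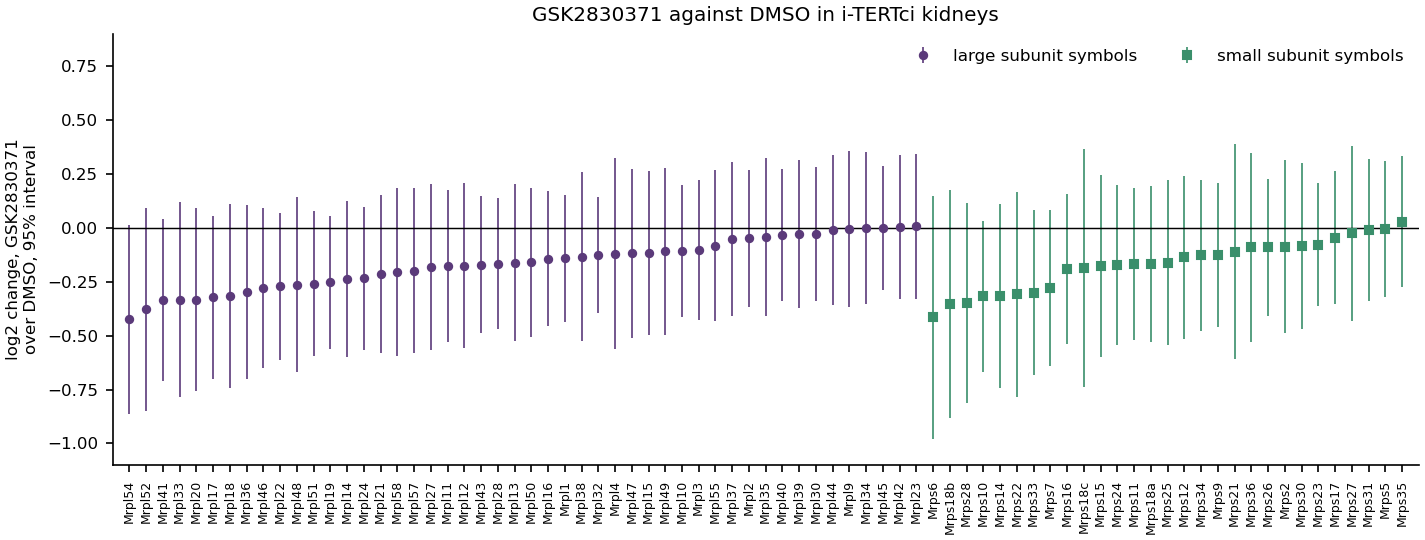
The log2 change of each member in GSK2830371 over DMSO kidneys with its 95% interval, large subunit symbols to the left (circles) and small subunit symbols to the right (squares). All 77 intervals include 0, and 74 of the 77 points lie below it.

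Both ribosomal RNAs of the mitoribosome fell in the same kidneys (log2 changes ± SE, and mean ± SD with n = 5, 5 and 4 for GSK2830371, DMSO and control here and for the lists that follow). mt-Rnr1, the small subunit ribosomal RNA, averaged 7789 ± 3535 normalised reads in GSK2830371 kidneys, 7938 ± 1895 in DMSO kidneys and 62789 ± 25899 in control kidneys, with a log2 change of -3.05 ± 0.31, adjusted p = 3.69e-06, in GSK2830371 against control, and -2.94 ± 0.31, adjusted p = 4.78e-06, in DMSO against control. mt-Rnr2, the large subunit ribosomal RNA, averaged 27119 ± 10102 normalised reads in GSK2830371 kidneys, 18057 ± 4387 in DMSO kidneys and 186591 ± 79545 in control kidneys, with a log2 change of -2.79 ± 0.31, adjusted p = 7.73e-06, in GSK2830371 against control, and -3.32 ± 0.31, adjusted p = 1.58e-06, in DMSO against control. The lowest control was above the highest i-TERTci library for both. Of the 15 mitochondrially encoded genes, 9 fell and 4 rose in each comparison with control. Over all genes, 22.0% fell and 24.3% rose in GSK2830371, and 23.1% fell and 25.2% rose in DMSO against control. The gene mt-Nd6, the one protein gene on the opposite strand of mitochondrial DNA, averaged 9885 ± 5042 normalised reads in GSK2830371 kidneys, 9547 ± 2372 in DMSO kidneys and 349 ± 222 in control kidneys, and rose by a log2 change of 4.89 ± 0.37, adjusted p = 4.16e-07, in GSK2830371 against control, and 4.93 ± 0.37, adjusted p = 3.47e-07, in DMSO against control. Without the strand setting its reads cannot be told apart from those of the opposite strand. The noncoding RNA Bc1, which is not a mitochondrial gene, fell further than these ribosomal RNAs. Its log2 change was -9.58 ± 0.59, adjusted p = 3.27e-08, in GSK2830371 against control, and -9.38 ± 0.59, adjusted p = 4.40e-08, in DMSO against control. How RNA was selected for the libraries is not given in the sources used here, and whether it differed between the groups was not tested. Tert, the gene of the transgene, was higher by a log2 change of 2.41 ± 0.60 (SE, adjusted p = 0.00484) in GSK2830371 and 3.24 ± 0.60 (adjusted p = 0.000621) in DMSO against control.

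Further genes of mitochondrial translation were taken from lists. Beside their counts, 22.0% of all genes fell and 24.3% rose in GSK2830371, and 23.1% fell and 25.2% rose in DMSO against control. Of 5 mitoribosomal proteins without an Mrp symbol, 2 fell and 1 rose in GSK2830371 against control, and 1 fell and 1 rose in DMSO against control. Gadd45gip1, a large subunit protein, averaged 663 ± 153 normalised reads in GSK2830371 kidneys, 802 ± 159 in DMSO kidneys and 1820.1 ± 172 in control kidneys, with a log2 change of -1.48 ± 0.18, adjusted p = 2.00e-05, in GSK2830371 against control, and -1.20 ± 0.18, adjusted p = 0.000107, in DMSO against control. Chchd1, a small subunit protein, averaged 1146 ± 215 normalised reads in GSK2830371 kidneys, 1429 ± 313 in DMSO kidneys and 691 ± 173 in control kidneys, with a log2 change of 0.75 ± 0.21, adjusted p = 0.00927, in GSK2830371 against control, and 1.06 ± 0.21, adjusted p = 0.000827, in DMSO against control. Of 26 assembly factors, 12 fell and 2 rose in GSK2830371 against control (median -0.34), and 10 fell and 4 rose in DMSO against control (median -0.31). Eral1, a chaperone of the small ribosomal RNA, fell, with a log2 change of -0.68 ± 0.13, adjusted p = 0.000659, in GSK2830371 against control, and -0.70 ± 0.13, adjusted p = 0.00045, in DMSO against control, while Rcc1l rose, with a log2 change of 0.60 ± 0.15, adjusted p = 0.00359, in GSK2830371 against control, and 0.90 ± 0.15, adjusted p = 0.000165, in DMSO against control. Of 16 translation factors, 6 fell in each comparison, none rose in GSK2830371 and 1 rose in DMSO against control. Oxa1l, which inserts new peptides into the inner membrane, averaged 2755 ± 449 normalised reads in GSK2830371 kidneys, 2491 ± 189.7 in DMSO kidneys and 6209.6 ± 675 in control kidneys, with a log2 change of -1.18 ± 0.14, adjusted p = 1.47e-05, in GSK2830371 against control, and -1.31 ± 0.14, adjusted p = 5.41e-06, in DMSO against control. Mtfmt, which formylates the initiator tRNA, also fell, with a log2 change of -0.80 ± 0.13, adjusted p = 0.000202, in GSK2830371 against control, and -0.67 ± 0.13, adjusted p = 0.00075, in DMSO against control. Of 20 genes for mitochondrial aminoacyl-tRNA synthesis, 5 fell and 4 rose in GSK2830371, and 5 fell and 3 rose in DMSO against control, a share of falls near the 22.0% and 23.1% of all genes. Gatc, a subunit of the glutamyl-tRNA amidotransferase, averaged 887 ± 74.99 normalised reads in GSK2830371 kidneys, 803 ± 127 in DMSO kidneys and 2758 ± 496 in control kidneys, with a log2 change of -1.62 ± 0.16, adjusted p = 2.51e-06, in GSK2830371 against control, and -1.77 ± 0.16, adjusted p = 1.06e-06, in DMSO against control. Vars2, the valyl-tRNA synthetase, fell too, with a log2 change of -1.31 ± 0.18, adjusted p = 4.73e-05, in GSK2830371 against control, and -1.34 ± 0.18, adjusted p = 3.38e-05, in DMSO against control.

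Of 21 genes for mitochondrial DNA transcription, replication and RNA processing, 4 fell and 2 rose in GSK2830371, and 5 fell and 3 rose in DMSO against control. These shares of falls too are near those of all genes, 22.0% in GSK2830371 and 23.1% in DMSO against control. The genes named here are those of each list with the smallest p, not typical members. Polrmt, the mitochondrial RNA polymerase, averaged 1182 ± 134 normalised reads in GSK2830371 kidneys, 1212 ± 178 in DMSO kidneys and 2862 ± 398 in control kidneys, with a log2 change of -1.27 ± 0.15, adjusted p = 1.08e-05, in GSK2830371 against control, and -1.24 ± 0.15, adjusted p = 1.27e-05, in DMSO against control. Fastk, which takes part in mitochondrial RNA processing, fell, with a log2 change of -1.29 ± 0.16, adjusted p = 1.50e-05, in GSK2830371 against control, and -1.11 ± 0.16, adjusted p = 4.92e-05, in DMSO against control. Of 9 regulators of mitochondrial biogenesis, 2 fell and 1 rose in GSK2830371, and 3 fell and 2 rose in DMSO against control. For these few genes the share of falls in GSK2830371 is near the 22.0% of all genes, and that in DMSO stands beside 23.1%. Ppargc1b, a coactivator of that programme, averaged 264 ± 23.5 normalised reads in GSK2830371 kidneys, 264 ± 130.4 in DMSO kidneys and 871 ± 254 in control kidneys, with a log2 change of -1.67 ± 0.36, adjusted p = 0.00177, in GSK2830371 against control, and -1.85 ± 0.36, adjusted p = 0.000754, in DMSO against control. Esrra, a nuclear receptor that works with it, fell, with a log2 change of -0.79 ± 0.22, adjusted p = 0.00773, in GSK2830371 against control, and -0.74 ± 0.22, adjusted p = 0.0109, in DMSO against control. None of these listed genes passed in GSK2830371 against DMSO. With total reads scaling the direction of several lists turned: 7 assembly factors rose and 2 fell in GSK2830371, and 9 rose and 3 fell in DMSO against control, and 4 translation factors rose and 4 fell in GSK2830371, and 4 rose and 1 fell in DMSO against control. Under that scaling 74.3% of all calls were higher in GSK2830371 and 72.4% in DMSO against control. The calls of Mtfmt and Esrra were lost under it in both comparisons, and that of Eral1 in GSK2830371 against control. A GC content correction ended the call of Esrra in both.

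Markers of kidney cell types moved in the same comparisons. Of all genes, 22.0% fell and 24.3% rose in GSK2830371, and 23.1% fell and 25.2% rose in DMSO against control. Of 6 proximal tubule markers, 5 fell and 0 rose in each comparison with control, and their summed normalised reads were 78654 to 322404 in GSK2830371, 105313 to 284516 in DMSO and 460310 to 889711 in control libraries. Both distal tubule markers fell in both comparisons, and of 3 intercalated cell markers 2 fell in GSK2830371 and 3 in DMSO against control. Not every tubule list fell. Of 2 loop of Henle markers 0 passed, with log2 changes of 0.61 to 0.65 in GSK2830371 and 0.079 to 0.64 in DMSO against control. Of 2 principal cell markers 1 fell and 0 rose in each comparison. All 3 neutrophil markers rose in both, with sums of 246 to 9561 in GSK2830371, 411 to 17187 in DMSO and 3.76 to 65.0 in control libraries. No podocyte marker passed, with sums of 13498 to 36476 in GSK2830371, 14769 to 34360 in DMSO and 18317 to 26584 in control libraries. No marker of these lists was at 0 throughout a group. The part of these cell types in the changes of the members was not tested.

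The change of all genes against control also ran with GC content. Over 4 equal bins of genes from low to high GC, the median log2 change of all genes in GSK2830371 against control was 0.36, 0.14, -0.065 and -0.38, and that of the members was -0.38, -0.48, -0.24 and -0.80. In DMSO against control the medians were 0.40, 0.14, -0.059 and -0.40 for all genes and -0.25, -0.39, -0.069 and -0.72 for the members. The median of the members was below that of all genes in every bin, by 0.010 in bin 3 of DMSO against control and by 0.17 to 0.74 elsewhere. Exons of 32 members overlap those of another gene, 27 of them on the opposite strand. Among these are Mrps30 (623 bases), Mrpl19 (1962), Mrpl47 (1068) and Mrps25 (4590), whose values may include reads of the neighbour. Of the 45 members with no such overlap, 26 fell and 4 rose in GSK2830371, and 20 fell and 6 rose in DMSO against control.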

How the data were processed

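RNA from whole kidney was sequenced, 14 libraries in all, 1 per mouse. Reads were checked, trimmed and aligned with FastQC, Trimmomatic and STAR to mm10 and handled with DESeq2, per the submitters' processing notes; which counter, annotation and strand were used is not given in the sources used here. Only RNA of high integrity was sequenced, per the labels' protocols. The 2 deposited tables, named raw counts by the authors, hold a signal of reads divided by a size factor, with the same controls in both. All values (100% within 0.001) were whole multiples of what 1 read is worth, so reads were recovered, with 0 mismatches between the control reads of the tables. Of 24221 and 24164 genes, 23682 were in both, and edgeR's filterByExpr kept 18810. No column was without a sample (0).

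Reads were divided by a median-of-ratios size factor over 14 libraries and fitted as log2(value + 1) with limma 3.58.1 (trend, robust) in R 4.3.3, with all groups in 1 fit. Intervals are 95%. The script was tested on simulated data. Alternatives were edgeR 4.0.16, DESeq2 1.42.0, limma-voom, no filter, a pseudocount of 0.5, TMM or total reads, a replicate block, Xist-positive libraries, Xist as a covariate, 31 days or fewer, 2 groups only, each library left out and subunits assigned by structure. A correction by running median over 20 bins of GC content, and the scaling of the classes and lists, were added after seeing the data. Transcript lengths and gene positions were those of GENCODE M21 on GRCm38, with 22776 genes (96.2%) found there. The members and lists were chosen with earlier results of these data known. Named members were the 5 largest rises and falls called per comparison, the 5 smallest p where none was called, members of known function, the 3 highest and 3 lowest per kilobase in controls, and 2 genes per list by smallest p. Members called in DMSO but not in GSK2830371 against control, or the reverse, and Mrpl22 were named after their values were seen. Figures used matplotlib 3.10.9.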

Additional observations from a re-analysis of the deposited data

Results flagged for a closer look

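Of 93 groups of values tested for a kidney far from the others of its group, 3 stood out, and chance gives about 1 in 20. Mrps18b had 1537 normalised reads in GSK2830371 replicate 1, against 890.5 in the next highest GSK2830371 kidney. Mrps25 had 1324 normalised reads in control replicate 1, against 1090.4 in the next highest control kidney. Mrps33 had 1358 normalised reads in DMSO replicate 1, against 894 in the next highest DMSO kidney, and the rise of Mrps33 in DMSO against control passed with each library left out.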

How the results depend on the processing

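With total reads, falls in DMSO against control numbered 11 in the large and 6 in the small subunit, with medians of 0.035 and 0.038, and falls in GSK2830371 against control numbered 15 and 8, with medians of -0.14 and -0.091. Rises of large subunit members in GSK2830371 against control were 5 with total reads, 3 with total reads without the mitochondrial genome and 2 with the replicate block. Rises of large subunit members in DMSO against control numbered 1 with Xist-positive libraries only, with Xist as a covariate, at 31 days or fewer and with 2 groups only, and 2 with the GC content correction. Small subunit rises there were 3 with Xist-positive libraries only and with Xist as a covariate. The large subunit median of GSK2830371 against DMSO was 0.032 with Xist-positive libraries only. With 1 library left out, large subunit rises in DMSO against control ranged over 1 to 5, large falls over 13 to 23, small rises over 4 to 6 and small falls over 10 to 13. In GSK2830371 against control these were 1 throughout, 21 to 26, 3 to 4 and 13 to 15. Medians ranged over -0.41 to -0.22 and -0.37 to -0.19 in DMSO, and -0.52 to -0.39 and -0.53 to -0.34 in GSK2830371 against control, and over -0.22 to -0.063 and -0.24 to -0.033 between GSK2830371 and DMSO, for the large and the small subunit. The cause of these changes was not tested. In all 24 settings of each comparison, Mrpl9, Mrps9 and Mrps33 were called higher and 14 large and 8 small members lower in GSK2830371 against control, and Mrpl9, Mrps9, Mrps14 and Mrps33 higher and 11 large and 6 small members lower in DMSO against control.

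Of all 77 members, 58 were below 0 in DMSO against control and 37 with total reads scaling. In GSK2830371 against control these were 65 and 46. The signs of single members were followed only for those named by the rule given and those that rose. Of these, the members that turned sign had not passed in that comparison under the setting reported, and at the turned sign none passed. Some passed under another setting with the sign reported, namely Mrps18b and Mrps30 as given with their values, Mrpl41 in GSK2830371 against control in 5 settings (adjusted p = 0.0377 to 0.0491), Mrpl17 (-0.63, adjusted p = 0.0146) and Mrps25 (-0.59, 0.0204) in DMSO against control and Mrpl19 (-0.41, 0.0386) and Mrps25 (-0.72, 0.00666) in GSK2830371 against control with the GC content correction. Without GSK2830371 replicate 4, Mrps25 passed too (-0.53, adjusted p = 0.0328). In DMSO against control, Mrpl19 was -0.085 with Xist-positive libraries, -0.054 at 31 days or fewer and -0.16 with the GC content correction, Mrpl47 was -0.056 with Xist-positive libraries and -0.21 with the GC content correction, Mrps18b was -0.18 with Xist-positive libraries and -0.044 with Xist as a covariate, Mrps6 was -0.056 with Xist-positive libraries, and Mrpl17, Mrpl41, Mrps25 and Mrps30 were 0.038, 0.20, 0.056 and 0.060 with total reads, and Mrpl41 0.0056 with total reads without the mitochondrial genome. In GSK2830371 against control, Mrpl47 was 0.00050 with TMM, 0.31 with total reads, 0.090 without the mitochondrial genome, 0.024 with the replicate block and 0.057 with Xist-positive libraries, Mrps18b was -0.14 with Xist-positive libraries and -0.25 with Xist as a covariate, and Mrpl19 and Mrps6 were 0.10 and 0.14 with total reads. In GSK2830371 against DMSO, Mrpl19 was 0.0028 with Xist-positive libraries. Leaving 1 library out gave -0.057 to 0.069 for Mrpl19 and -0.0030 to 0.23 for Mrpl47 in DMSO, and -0.11 to 0.12 for Mrpl47, -0.12 to 0.12 for Mrps18b and -0.39 to 0.038 for Mrps6 in GSK2830371 against control. Same-numbered libraries deviated together by correlations of -0.06 to 0.33 over genes. GSK2830371 replicates 1 to 4 were each closest to the control of their own number, at 0.045 to 0.10. GSK2830371 replicates 1 and 2 were closest to the DMSO library of their own number, at 0.33 and 0.27, and replicates 3 to 5 were not. DMSO replicates 2 and 4 were closest to their own control number, and replicates 1 and 3 were not. Whether the numbers pair the mice cannot be settled from this. With the replicate block, 42 members were called in DMSO and 45 in GSK2830371 against control, against 41 and 45 without it.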
